A study of Macaca mulatta with 4 samples.

Results

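The genes described here are 10 genes of tight junctions and simple epithelium: the claudins CLDN3, CLDN4, CLDN6 and CLDN7, OCLN, TJP1, EPCAM and the keratins KRT8, KRT18 and KRT19. They were chosen by name from a table of 23697 genes. The symbol column held 8 of the 10. The rows of KRT18 and KRT19 carry the symbols LOC700569 and LOC707129 and were matched by NCBI gene ID through the RefSeq gene table.

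In rhesus monkey (Macaca mulatta), RNA was sequenced from embryonic stem cells, or ESCs, and from neural progenitor cells, or NPCs, in a series about haploid NPCs as a screening system. 3 of its 4 samples were used, each with 1 library: diploid ESCs, labelled embryonic day E3.5, haploid ESCs, labelled E2.5, and diploid NPCs, labelled E3.5. Haploid NPCs were not analysed here. ESCs are pluripotent cell cultures that come from early embryos, haploid ones hold a single chromosome set, and NPCs divide and give rise to neurons and glia. All samples carry the same source label, in vitro differentiation, and the tissue label embryo, and no label names a cell line, passage, parental origin or feeder layer. Ploidy and the labelled embryonic day cannot be told apart in these libraries.

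Tight junctions seal the space between epithelial cells near their apical side. Claudins form the strands that set which ions pass, occludin (OCLN) is a membrane protein of the same strands, and ZO-1 (TJP1) is the scaffold beneath them that ties the strands to actin. Keratins 8 and 18, a type II and a type I keratin, pair to form the intermediate filaments of simple, single-layered epithelia. Primate ESCs grow as an epithelial sheet and carry many of these transcripts, while the neuroepithelium is known to lose occludin around neural tube closure and to keep apical junctions that contain ZO-1.

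The unit is FPKM, in which fragments are scaled to transcript length and library size, so that levels can be set side by side between genes. Log2 ratios were taken after adding 1 to each FPKM, which makes differences of genes with low values look smaller. A gene was called when its ratio was at least 4-fold (2 on the log2 scale), among the 14474 genes whose mean over the 3 libraries was at least 1 FPKM. With 1 library a group no difference has a replicate check, no test was possible, and all values are descriptions of these libraries. Diploid ESCs had 13721 genes at 1 FPKM or more, haploid ESCs 13147 and NPCs 14022. Read totals are not stated. The steps between low values put the depth of the haploid ESC library at 95.9% and that of the NPC library at 79.0% of the diploid ESC library. The labels were checked against marker genes. The 10 pluripotency markers summed to 3401 FPKM in diploid, 2412 FPKM in haploid ESCs and 129 FPKM in the NPCs, and the 11 neural progenitor markers to 510, 616 and 2083 FPKM. Single genes carried much of these sums. POU5F1 held 1859 FPKM of the first in diploid ESCs and SOX2 109 FPKM in the NPCs. Of the neural sum in diploid ESCs, NES held 253 FPKM and VIM 195 FPKM.

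All 10 genes were highest in one of the ESC libraries and every one was lower in NPCs than in diploid ESCs. Between the ESC libraries they parted. CLDN6, OCLN and TJP1 lay within 2-fold of the diploid level in haploid ESCs, CLDN6 only just, at 51.9%. Most genes of any kind did so: of all 14474 tested, 1329 were lower and 1041 higher by 2-fold or more. KRT8 and KRT18 were lower but short of 4-fold, at 39.6% and 26.6% of the diploid level. CLDN3, CLDN4, CLDN7, EPCAM and KRT19 were at least 4-fold lower. Summed over the 10 genes, the level was 1748 FPKM in diploid, 654 FPKM in haploid ESCs and 50.96 FPKM in the NPCs. Libraries of whole cultures do not separate fewer cells that express a gene from less RNA in each cell.

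**Figure D1:**
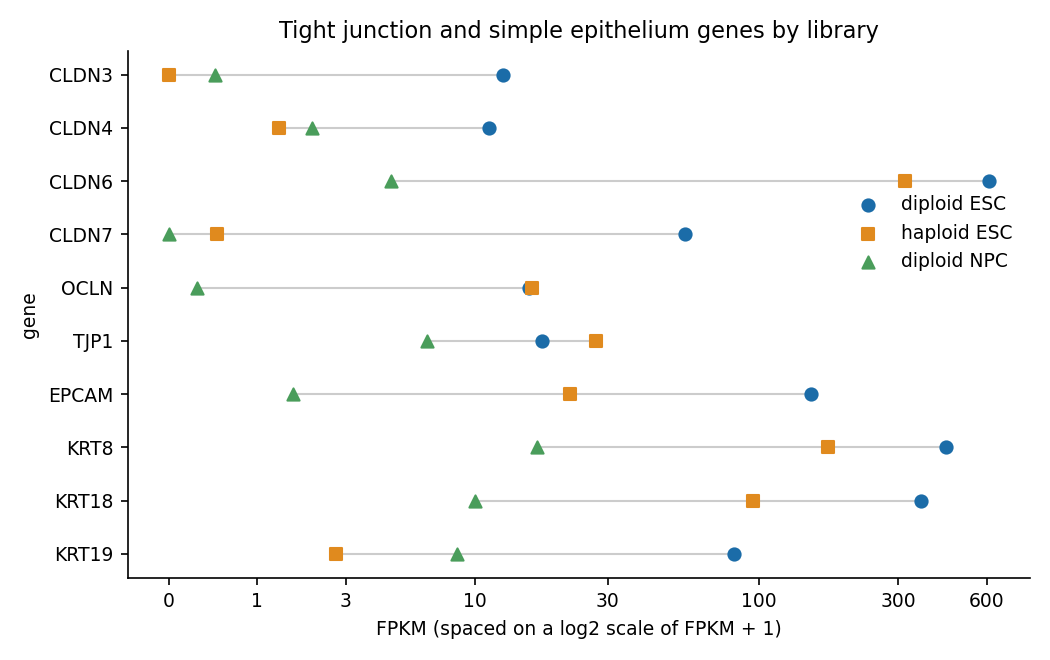
FPKM of the 10 genes (y axis) in diploid ESCs (circles), haploid ESCs (squares) and diploid NPCs (triangles), spaced on a log2 scale of FPKM plus 1, with a grey line from the lowest to the highest library. CLDN6 stood at 609, 316 and 4.68 FPKM in the 3 libraries, while CLDN7 had 55.9 FPKM in the diploid and 0.46 FPKM in the haploid ESC library and was listed at 0 in NPCs.

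Among the claudins, CLDN6 (NCBI gene 699854) was by far the most abundant. It encodes a claudin of embryonic epithelia and pluripotent cells and stood at 609 FPKM in diploid, 316 FPKM in haploid ESCs and 4.68 FPKM in the NPCs. Its level ranked 148th of all genes in diploid ESCs and 221st in haploid ESCs, against 9585th in NPCs. Haploid ESCs thus held 51.9% of the diploid level and NPCs 0.768%, with log2 ratios of -0.94 and -6.75. The haploid ratio lay at the 10th percentile of all genes tested.

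CLDN7 (NCBI gene 714647), a claudin that binds EPCAM, was the next most abundant claudin in diploid ESCs, at 55.9 FPKM. It stood at 0.46 FPKM in haploid ESCs and was listed at 0 in NPCs. The haploid value was 0.822% of the diploid one, the lowest such share among the 9 genes above 0 in haploid ESCs, and the log2 ratio was -5.29. CLDN7 and CLDN6 thus differed in the haploid library, where CLDN7 was below 1 FPKM and CLDN6 at 51.9% of its diploid level. Both were far lower in NPCs.

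CLDN3 and CLDN4 encode similar claudins of gut and lung epithelium, both known as receptors of a clostridial enterotoxin in humans, and lie next to each other in the RefSeq gene order. CLDN3 (NCBI gene 716771) was at 12.7 FPKM in diploid ESCs, had a listed value of 0 in haploid ESCs and stood at 0.44 FPKM in NPCs. CLDN4 (NCBI gene 716808) stood at 11.3, 1.36 and 2.06 FPKM in the same order. For both, the diploid ESC library was the high one and the others were low. CLDN4 in haploid ESCs held 12.1% of the diploid level, a log2 ratio of -2.38, and in NPCs 18.3%, with a log2 ratio just past the 4-fold threshold.

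The make-up of the claudin transcripts therefore differed between libraries. The 22 claudin rows of the table summed to 729 FPKM in diploid, 345 FPKM in haploid ESCs and 18.2 FPKM in the NPCs. CLDN6 made up 83.6% of that sum in diploid ESCs, 91.7% in haploid cells and 25.7% in NPCs. CLDN3, CLDN4, CLDN6 and CLDN7 together made up 94.6%, 92.3% and 39.4%. At 1 FPKM or more there were 10 claudins in diploid and 7 in haploid ESCs, and 6 in NPCs. In NPCs, where no claudin passed 5 FPKM, CLDN12 stood at 3.58 FPKM and CLDN15 at 2.83 FPKM, next to CLDN6 at 4.68 FPKM. Claudins are paralogs of similar sequence, and how reads that match several genes were treated is known only as the default settings of the counting tool. CLDN9, the neighbour and close paralog of CLDN6, stood at 0.95, 0.30 and 0 FPKM in the 3 libraries.

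**Figure D2:**
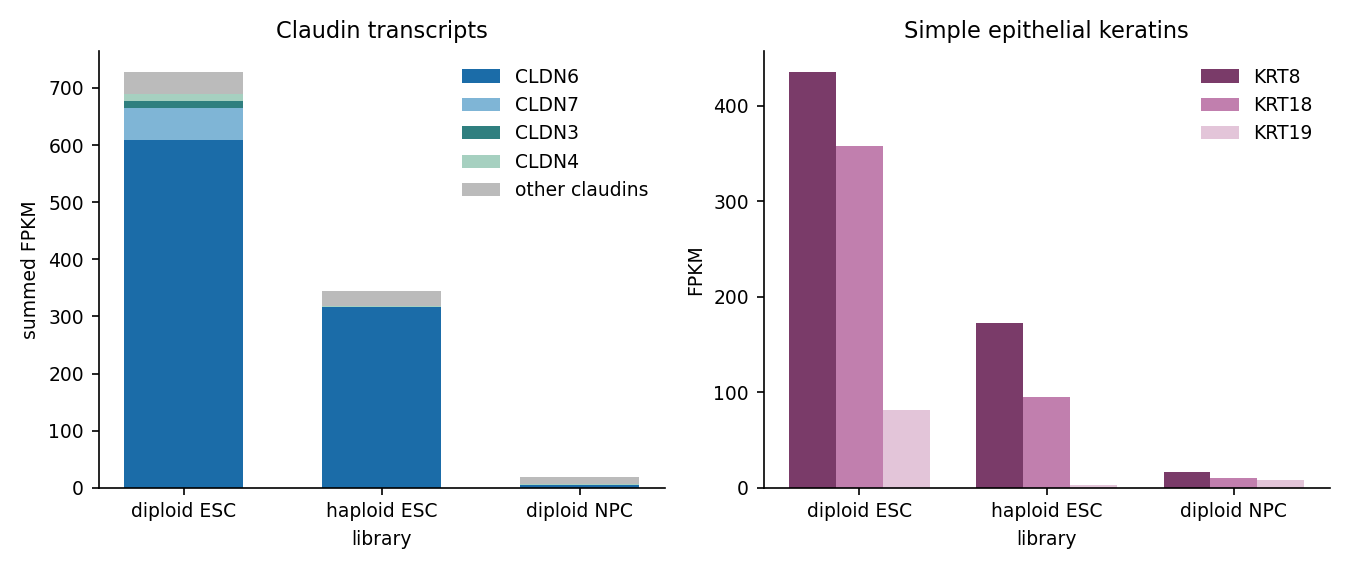
Left, summed FPKM of all claudins in each library (x axis), with CLDN6, CLDN7, CLDN3, CLDN4 and the other claudins stacked; right, FPKM of KRT8, KRT18 and KRT19 in each library. CLDN6 makes up 83.6% of the claudin sum in diploid ESCs and 91.7% in haploid ESCs, and KRT19 is at 81.9 FPKM in diploid ESCs and at 2.71 FPKM in haploid ESCs.

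OCLN (NCBI gene 700504) was at the same level in both ESC libraries and nearly absent from NPCs. It stood at 15.7 FPKM in diploid, 16.2 FPKM in haploid ESCs and 0.25 FPKM in the NPCs. The haploid level was 103% of the diploid one, and the NPC level was 1.59% of the diploid and 1.55% of the haploid one. TJP1 (NCBI gene 720550) had the smallest difference of the 10 genes between NPCs and diploid ESCs. It stood at 17.6 FPKM in diploid, 27.3 FPKM in haploid ESCs and 6.55 FPKM in the NPCs, with log2 ratios of 0.60 for haploid against diploid ESCs and -1.30 for NPCs against diploid ESCs. It was the only one of the 10 not called lower in NPCs against diploid ESCs, and NPCs held 37.2% of the diploid ESC level.

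EPCAM (NCBI gene 677680), a surface glycoprotein of epithelia and pluripotent cells that holds claudins at the membrane, stood at 150 FPKM in diploid, 22.2 FPKM in haploid ESCs and 1.65 FPKM in the NPCs. Its 3 libraries were thus widely spaced, with haploid ESCs between the others at 14.7% of the diploid level and NPCs at 1.1%. The log2 ratios were -2.71 and -5.84.

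Of the keratins, KRT8 (NCBI gene 700449) stood at 436 FPKM in diploid, 173 FPKM in haploid ESCs and 16.9 FPKM in the NPCs. KRT18 (NCBI gene 700569), its filament partner and its neighbour in the RefSeq gene order, stood at 358, 95.3 and 9.94 FPKM. Both were high, intermediate and low in the same order, and in NPCs they held 3.87% and 2.78% of the diploid ESC level. The level of KRT8 was 1.22 times that of KRT18 in diploid ESCs, 1.81 times in haploid ESCs and 1.70 times in NPCs. KRT18 in haploid ESCs lay just short of the 4-fold threshold, with a log2 ratio of -1.90, and KRT8 had a ratio of -1.33.

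KRT19 (NCBI gene 707129), the smallest type I keratin, did not follow the pair. It stood at 81.9 FPKM in diploid, 2.71 FPKM in haploid ESCs and 8.52 FPKM in the NPCs, so that haploid ESCs were the low library. Its haploid level was 3.31% of the diploid one, a log2 ratio of -4.48. As a share of the KRT18 level, KRT19 was 22.9% in diploid ESCs, 2.84% in haploid cells and 85.7% in NPCs.

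Keratins 8, 18 and 19 have processed copies in primate genomes that can share reads with them. By protein match, 6 further rows of the table resemble KRT8, 6 resemble KRT18 and 2 resemble KRT19. The rows like KRT8 summed to 62.8 FPKM in diploid, 27.7 FPKM in haploid ESCs and 7.37 FPKM in the NPCs, which is 14.4% of KRT8 itself in diploid ESCs and 43.7% in NPCs, so the NPC value of KRT8 is the least certain. Added to KRT8, they gave log2 ratios of -1.31 in haploid ESCs and -4.31 in NPCs against diploid ESCs. For KRT18, adding the copies gave -1.88 and -4.69, and for KRT19 -4.43 and -3.14.

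Of the 10 genes, 5 were called lower in haploid against diploid ESCs and none was called higher, where 2.53% of all genes tested were called lower and 1.04% higher. Rescaling each library to the same sum moved the share of higher calls among all calls from 29.2% to 40.3% and the median of all genes from 0.02 to 0.21, and left the same 5 genes past the threshold. The median log2 ratio of the 10 genes was -2.14, or -1.90 without CLDN3, which was listed at 0 in haploid ESCs, against 0.02 over all genes tested. In NPCs against diploid ESCs 9 of the 10 were called lower and none higher, where 6.11% of all genes were called lower and 8.28% higher. Their median was -4.17, or -3.74 without CLDN7, against 0.01 over all genes. All 10 genes passed the filter on mean level, CLDN3 and CLDN7 only through the diploid ESC library, the mean of the other 2 libraries being below 1 FPKM, so the filter favoured their being lower elsewhere. Without them, 3 of 8 were called lower in haploid ESCs, with a median of -1.61. In NPCs against diploid ESCs 7 of 8 were called lower, with a median of -4.17. Both comparisons share the diploid ESC library and are not independent.

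In NPCs against haploid ESCs, which share a library with each of the former, 5 of the 10 were called lower and none higher, where 7.9% of all genes were called lower and 11.6% higher. CLDN6, OCLN, EPCAM, KRT8 and KRT18 were the 5, with log2 ratios from -5.80 to -3.13. TJP1 lay just short of the threshold, at -1.91, and past it at -2.24 when each library was rescaled to the same sum, which also moved the median of all genes from 0 to -0.26. CLDN3, CLDN4 and CLDN7 were at or below 2.06 FPKM in both libraries. KRT19 was the only one of the 10 above that level that was higher in NPCs than in haploid ESCs, 3.14 times by FPKM and 1.36 as a log2 ratio. That rescaling brought the share of higher calls among all calls from 59.5% to 47.9%.

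**Figure D3:**
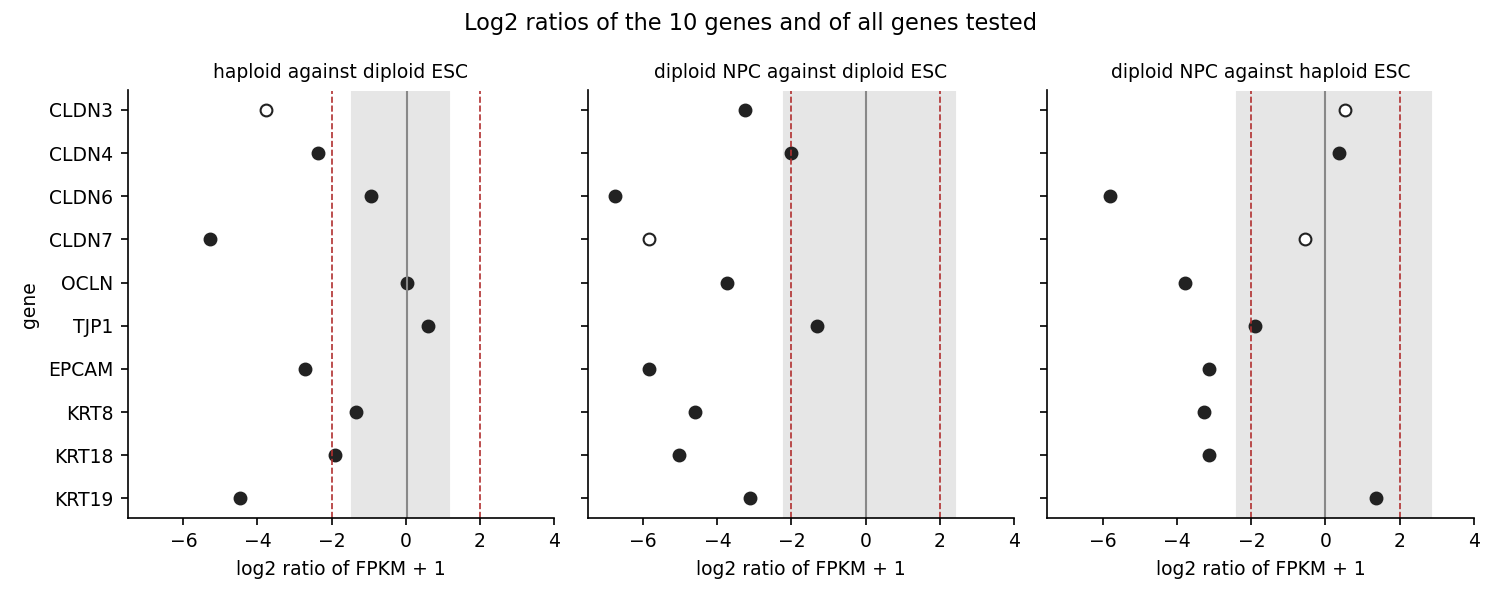
Log2 ratios of FPKM plus 1 (x axis) of the 10 genes in 3 comparisons of single libraries; open circles mark a gene listed at 0 in one library, grey bands the 5th to 95th percentile of all 14474 genes, the grey line their median and dashed lines the 4-fold thresholds. In haploid against diploid ESCs, CLDN6 at -0.94, OCLN at 0.04, TJP1 at 0.60 and KRT8 at -1.33 lie inside the band, and CLDN7 at -5.29 and KRT19 at -4.48 lie far below it.

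Genes nearest to 3 contrasting members were ranked by distance over the log2 ratios of haploid ESCs and of NPCs against diploid ESCs, among 8277 others with a symbol and at least 10 FPKM in a library. Nearest to CLDN6 were SLC2A3, FOSB and L1TD1, at distances of 0.61, 0.72 and 0.79. SLC2A3, a glucose transporter, stood at 423 FPKM in diploid, 203 FPKM in haploid ESCs and 4.96 FPKM in the NPCs. Nearest to CLDN7 were SOX17, LCK and DPRX, at 0.53, 1.25 and 1.41, with SOX17, an endoderm factor, at 60.4, 0.1 and 0 FPKM. CLDN7, SOX17 and DPRX passed the filter only through diploid ESCs. Their values near 0 elsewhere leave the ratios set mainly by the diploid level and the added 1, so this nearness shows little beyond that. OCLN was nearest to SLC39A14, ARID3B and MMP25, at 0.06, 0.08 and 0.10. SLC39A14 stood at 56.4, 57.7 and 3.47 FPKM, against 15.7, 16.2 and 0.25 FPKM for OCLN. The added 1 makes the low NPC value of OCLN look less far from its ESC level, so these profiles are less alike than the distances show.

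The other claudins were lower in NPCs in part. Of 19 genes listed, among them the claudin domain gene CLDND1, 17 were found and 7 tested. In haploid against diploid ESCs none of the 7 was called in either direction and the median was -0.88. With 2.53% of all genes called lower and 1.04% higher, the lack of calls among 7 genes shows little. CLDN1, a barrier claudin of skin that passed the filter only through diploid ESCs, had the lowest ratio, at 3.27 and 0.42 FPKM, and CLDN12 the highest, at 10.4 and 14.4 FPKM. In NPCs against diploid ESCs CLDN10, CLDN11 and CLDN19 were called lower, none was called higher, and the median was -1.86. CLDN19, known from kidney and retina, stood at 10.7 FPKM in diploid cells, 3.87 FPKM in haploid ESCs and was listed at 0 in NPCs.

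Other tight junction proteins, membrane proteins and scaffolds, went both ways. Of 32 listed genes 29 were tested, and in haploid against diploid ESCs 1 was called lower and 1 higher, 16 were within 2-fold, and the median was 0.07. That share within 2-fold was smaller than among all 14474 genes tested, of which 1329 were lower and 1041 higher by 2-fold or more. At 4-fold 2.53% of all genes were called lower and 1.04% higher, so 1 call each way does not set the list apart. The gene called lower was CRB3, which encodes an apical polarity protein, at 40.2 FPKM in diploid, 1.2 FPKM in haploid ESCs and 2.11 FPKM in the NPCs. ILDR2, an angulin of junctions between 3 cells, was the gene called higher, at 1.36, 9.98 and 7.73 FPKM. In NPCs against diploid ESCs 5 were called lower, LSR, F11R, CGN, CRB3 and PARD6B, and 2 higher, JAM2 and MARVELD3, with a median of -0.34. Of all genes, 6.11% were called lower and 8.28% higher in that comparison. CGN, cingulin, which binds ZO-1, was kept in haploid ESCs like OCLN, at 17.7 FPKM in diploid, 14.8 FPKM in haploid ESCs and 0.39 FPKM in the NPCs.

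Within families of these proteins, members differed in which library held most of them. The families were chosen after their values were seen. In the family of occludin, OCLN was at 0.25 FPKM in NPCs while MARVELD2, tricellulin, stood at 6.17 FPKM in diploid, 2.53 FPKM in haploid ESCs and 23.1 FPKM in the NPCs. MARVELD3 stood at 10.2, 3.8 and 50.3 FPKM, so both were highest in NPCs, where OCLN was lowest. F11R, the junctional adhesion molecule JAM-A, stood at 92.0 FPKM in diploid, 26.9 FPKM in haploid ESCs and 2.39 FPKM in the NPCs. JAM2 was at 4.33, 3.51 and 31.7 FPKM and JAM3 at 12.9, 32.1 and 41.7 FPKM, both highest in NPCs. The angulin LSR was at 124, 42.5 and 3.21 FPKM. The polarity gene PARD6B was at 3.67, 4.15 and 0.08 FPKM, and its paralog PARD6G at 30.9, 17.4 and 116 FPKM. TJP3, a scaffold of the TJP1 family that missed the filter, was at 2.12, 0.04 and 0.56 FPKM, highest in diploid ESCs, where TJP1 was highest in haploid ESCs.

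**Figure D4:**
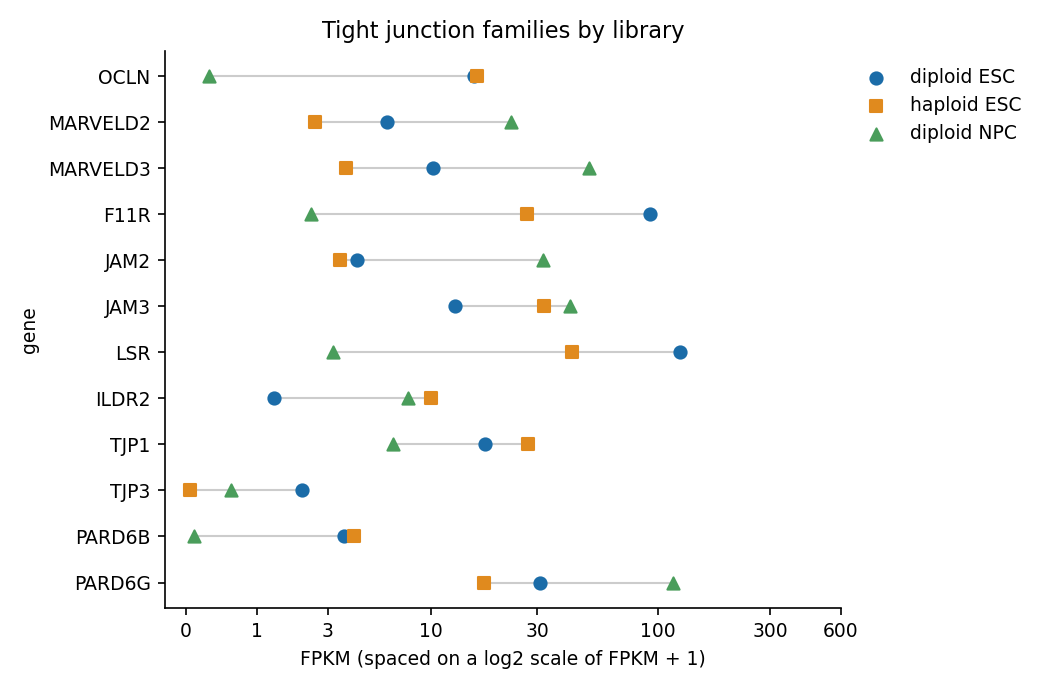
FPKM of 12 tight junction genes by family (y axis) in diploid ESCs (circles), haploid ESCs (squares) and diploid NPCs (triangles), spaced on a log2 scale of FPKM plus 1, with a grey line from the lowest to the highest library. OCLN, F11R, LSR and PARD6B are lowest in NPCs, at 0.25, 2.39, 3.21 and 0.08 FPKM, whereas MARVELD2, MARVELD3, JAM2, JAM3 and PARD6G are highest there.

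Other keratins were scarce. Of 23 listed, 16 were found and 3 passed the filter, and the other 13 were at most at 0.75 FPKM in any library. KRT7, another keratin of simple epithelia, stood at 10.8 FPKM in diploid, 0.34 FPKM in haploid ESCs and 0.19 FPKM in the NPCs, and was called lower in both comparisons with diploid ESCs, the library through which alone it passed the filter. KRT10 stood at 7.38, 7.61 and 10.6 FPKM, and KRT222 at 1.33, 0.89 and 1.32 FPKM, both within 2-fold throughout.

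In haploid ESCs, adherens junction and desmosome genes mostly lay within 2-fold of diploid ESCs, as did most genes of any kind. Of 17 tested genes, 14 did so, 2 were called lower and none higher, with a median of 0.10. Of all 14474 genes tested, 1329 were lower and 1041 higher by 2-fold or more, so this count does not set the list apart. CDH1, the epithelial cadherin, was called lower, at 17.1 FPKM in diploid, 1.5 FPKM in haploid ESCs and 23.6 FPKM in the NPCs, and so was the plakophilin PKP3, at 5.69, 0.02 and 0.08 FPKM, which passed the filter only through diploid ESCs. NECTIN3, an adhesion molecule of adherens junctions, had the highest ratio, at 21.2, 50.5 and 11.8 FPKM. In NPCs against diploid ESCs DSP, JUP, PKP2, PKP3 and PERP were called lower and the desmocollin DSC3 higher, with a median of -1.40. DSP, desmoplakin, which anchors keratin filaments to desmosomes, stood at 34.5 FPKM in diploid, 21.5 FPKM in haploid ESCs and 0.87 FPKM in the NPCs.

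Of 12 tested surface proteins and proteases of epithelia, ST14, SPINT1, PRSS8, RAB25 and AP1M2 were called lower in haploid ESCs and none was called higher, with a median of -1.62. RAB25 and AP1M2 passed the filter only through diploid ESCs and MUC1 only through NPCs, and without these 3 genes 3 of 9 were called lower, with a median of -1.41. AP1M2, an epithelial sorting adaptor, had the lowest ratio, at 20.9 FPKM in diploid, 0.25 FPKM in haploid ESCs and 0.46 FPKM in the NPCs, and CD24 the highest, at 172, 187 and 112 FPKM. ST14, matriptase, a protease that cleaves EPCAM, stood at 15.1, 2.22 and 0.61 FPKM. Its inhibitor SPINT1 stood at 37.5, 2.86 and 0.56 FPKM and the related protease PRSS8 at 69.4, 6.74 and 0.29 FPKM. Against diploid ESCs, 6 of the 12 were called lower in NPCs, those 5 and MAL2, and the mucin MUC1 was called higher, at 1.11 FPKM in diploid, 0.82 FPKM in haploid ESCs and 47.2 FPKM in the NPCs. The median was -2.12, and without the same 3 genes 4 of 9 were called lower and none higher, with a median of -1.60.

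Of 9 tested regulators of epithelial genes, ESRP1, OVOL1, OVOL2, ELF3 and KLF5 were called lower in haploid ESCs, with a median of -2.02. Of the 9, 6 passed the filter only through diploid ESCs, ESRP1, GRHL2, GRHL3, OVOL1, OVOL2 and ELF3, so their counts and median give no support to a difference of the list. KLF5 was the only gene called among the other 3, at 33.4 FPKM in diploid, 2.13 FPKM in haploid ESCs and 4.64 FPKM in the NPCs, and ESRP2, at 26.0, 6.26 and 0.03 FPKM, lay just short of the threshold. ESRP1, an epithelial splicing factor, stood at 34.6 FPKM in diploid, 1.77 FPKM in haploid ESCs and 0.08 FPKM in the NPCs. GRHL2, known to activate claudin and CDH1 genes in epithelia, stood at 6.57, 1 and 0.12 FPKM, with a log2 ratio of -1.92 in haploid ESCs. KLF4 had the smallest difference between the ESC libraries, at 18.3, 9.56 and 0.27 FPKM. In NPCs against diploid ESCs 8 of the 9 were called lower, OVOL1 being the exception, with a median of -2.76, and so were all 3 of KLF4, KLF5 and ESRP2.

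Among 9 mesenchymal genes and repressors, ZEB1 and ZEB2, which repress CDH1 and other epithelial genes, were called higher in haploid against diploid ESCs and in NPCs against diploid ESCs. ZEB1 stood at 1.4 FPKM in diploid, 14.5 FPKM in haploid ESCs and 21.9 FPKM in the NPCs. In haploid ESCs 5 of the 9 were higher and 4 lower, with a median of 0.20. None was called lower there, though SNAI1 and TWIST1 had log2 ratios of -1.30 and -1.38. Of all genes, 2.53% were called lower and 1.04% higher in that comparison. CDH1 stood at 17.1 FPKM in diploid, 1.5 FPKM in haploid ESCs and 23.6 FPKM in the NPCs, and any link to ZEB1 or ZEB2 was not tested. In NPCs VIM was also called higher and SNAI1, TWIST1 and TWIST2 lower, with a median of 0.18.

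**Figure D5:**
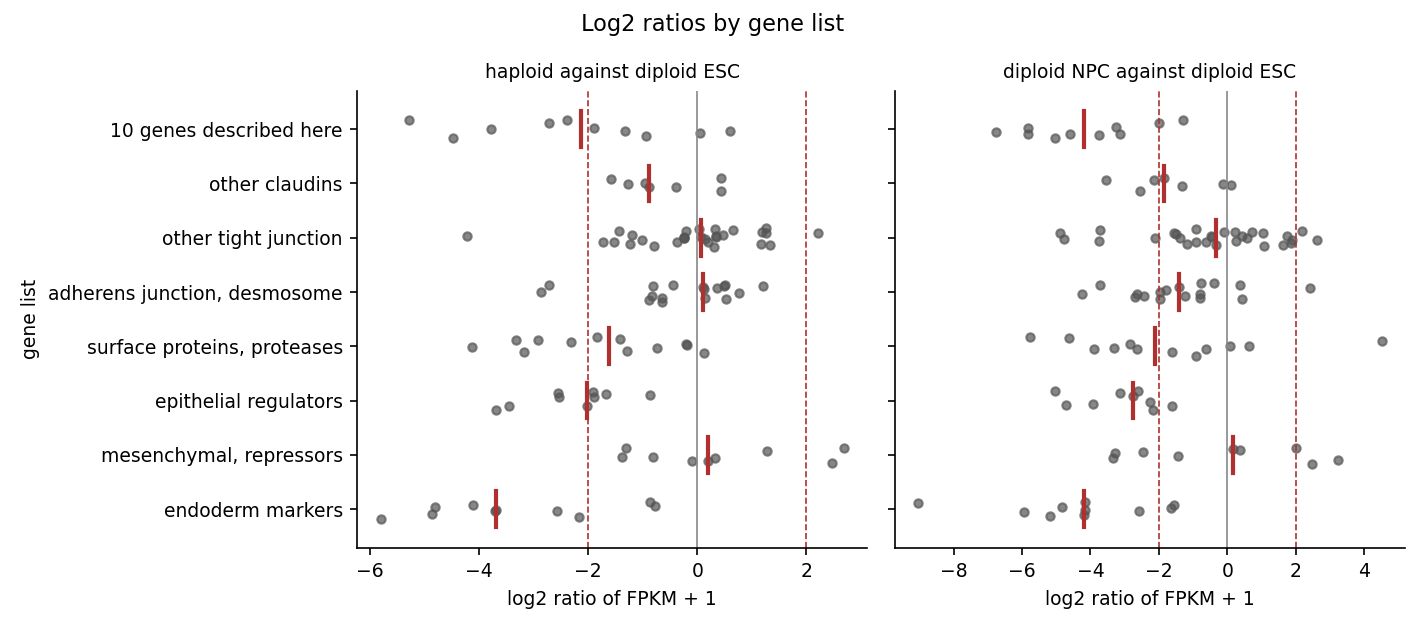
Log2 ratios of FPKM plus 1 (x axis) of the tested genes of 8 lists (y axis; each point is a gene, red bars are medians, dashed lines the 4-fold thresholds) for haploid and for NPC libraries against diploid ESCs. In haploid ESCs the medians of the 10 genes described here (-2.14) and of endoderm markers (-3.69) lie below those of other tight junction genes (0.07) and of adherens junction and desmosome genes (0.10). Leaving out genes that passed the filter only through diploid ESCs gives -1.61 for the genes described here and -3.68 for endoderm markers.

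Markers of other cell types also differed between the ESC libraries, endoderm markers being lower and fibroblast markers mostly higher in haploid ESCs. The 11 endoderm markers summed to 1034 FPKM in diploid, 73.2 FPKM in haploid ESCs and 32.8 FPKM in the NPCs. CER1 alone held 663, 37.6 and 0.26 FPKM of these sums. Of the 10 that were tested, 8 were called lower in haploid ESCs, where 2.53% of all genes were, and the median of the 10 was -3.69. SOX17, FOXA2 and AFP passed the filter only through diploid ESCs, and without them 6 of 7 were called lower, with a median of -3.68. TTR, a marker of later endoderm, was listed at 0 in both ESC libraries. Endoderm is an epithelium that carries claudins, EPCAM and keratins, and its part in the difference was not tested. The 9 fibroblast markers, which would also mark feeder cells, summed to 471 FPKM in diploid, 708 FPKM in haploid ESCs and 159 FPKM in the NPCs. In haploid ESCs 3 were called higher, where 1.04% of all genes were, with a median of 1.22. Without LUM, which passed the filter only through NPCs, 3 of 8 were called higher, with a median of 1.30. The part of such cells was not tested either.

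Amnion and trophectoderm are simple epithelia rich in these keratins. The 13 of their 14 listed markers that were found summed to 30.45 FPKM in diploid, 19.1 FPKM in haploid ESCs and 15.3 FPKM in the NPCs. Of these, 4 were tested and none was called in haploid against diploid ESCs. With 2.53% of all genes called lower and 1.04% higher there, the lack of calls among 4 genes does not show that the markers were alike. TFAP2C stood at 10.1 FPKM in the diploid and 5.85 FPKM in the haploid ESC library, VTCN1 at 9.91 and 5.54 FPKM and IGFBP3 at 8.51 and 6.7 FPKM, and TFAP2B was detected mainly in NPCs, at 4.05 FPKM. The other 9 were at most at 0.65 FPKM in either ESC library, among them GATA3, CDX2, ISL1 and GABRP. The part of such cells in the difference was not tested. Of 7 apical proteins of the neuroepithelium, TJP1 among them, none was called lower in NPCs against diploid ESCs. With 6.11% of all genes called lower, the lack of calls among 7 genes does not show that the list was kept. Of the 7, 4 were lower and 3 higher in NPCs, with TJP1 and NUMB at log2 ratios of -1.30 and -1.27. CRB2, a polarity protein of the same family as CRB3, was called higher, at 1.18 FPKM in diploid, 1.17 FPKM in haploid ESCs and 12.9 FPKM in the NPCs, and the list's median was -0.40.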

How the data were processed

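Per the labels' protocols, total RNA was isolated with Trizol and read on a BGISEQ-500, reads were aligned to the UCSC Rhesus8 assembly allowing 2 mismatches, featureCounts gave the reads of each gene with its defaults, and genes above 10 summed reads were retained. The submitters' processing notes name STAR 2.4 as the aligner. The authors deposited FPKM values with 2 decimals. No source used here says how FPKM was derived from the counts. Whether counting used strand is also not stated, so a gene and one that overlaps it cannot be separated.

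Columns were assigned by the sample description that starts each name: 3 columns fitted a sample, and 1 further column of values fitted none and was left out. FPKM was used as deposited, without rescaling. The naming rule took all 10 members, CDH1, ESRP1 and, of each of 13 further gene lists, the extremes and up to 4 others at 10 FPKM or more. Other list genes, such as those past the 4-fold threshold or missing the filter, and the family comparisons, were named after their values were seen. Some genes of these lists are not reported here. The members and lists were chosen with earlier results of these data known. Of 194 symbols 183 were found, 11 of them by NCBI gene ID in the RefSeq table of another assembly, from which names and gene order alone were taken. Relative depth is the most frequent ratio of values between 0.15 and 0.6 FPKM in both libraries, over 1311 genes for haploid ESCs and 905 for NPCs. The tools were Python 3.11.15 with numpy 2.4.6, pandas 2.3.3 and matplotlib 3.10.9. The ratio and call steps were tested on simulated data. Each comparison was repeated without a filter, with a mean of at least 5 FPKM, with a pseudocount of 0.1, after rescaling to a sum of 1000000, after centring on the median, and with thresholds of 2-fold and 8-fold.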

Additional observations from a re-analysis of the deposited data

How the results depend on the processing

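No paired analysis was possible because each group held 1 library and no test was made. The number of the 10 genes called lower in haploid ESCs, 5, was 3 of the 8 left with a mean of at least 5 FPKM, which drops CLDN3 and CLDN4, 3 at a threshold of 8-fold, and 3 of 8 without CLDN3 and CLDN7, an alternative added after seeing the data. The number called higher in NPCs against haploid ESCs, 0, was 1 at a pseudocount of 0.1 (CLDN3) and 1 at a threshold of 2-fold (KRT19). All other counts of the 10 genes stayed within 1.5 times under the alternatives run. Of 38 recomputed log2 ratios of the 10 genes in each comparison, none crossed the threshold against diploid ESCs, and 4 did in NPCs against haploid ESCs: with a pseudocount of 0.1 those of CLDN3 and CLDN7, each listed at 0 in one of these libraries, and of TJP1 (-2.04), and with rescaling that of TJP1 (-2.24). The cause was not tested. Over all genes, a pseudocount of 0.1 raised the calls against diploid ESCs from 366 to 728 lower and 151 to 330 higher in haploid ESCs, and from 885 to 1526 lower and 1198 to 1817 higher in NPCs; against haploid ESCs lower calls in NPCs went from 1143 to 1810. Rescaling gave 291 higher calls in haploid ESCs and, against haploid ESCs, 1855 lower calls in NPCs. A mean of at least 5 FPKM left 218 lower and 80 higher calls in haploid ESCs and 1098 of 1676 higher calls in NPCs against haploid ESCs. At 2-fold and 8-fold the calls in haploid ESCs were 1329 and 110 lower and 1041 and 41 higher, those in NPCs against diploid ESCs 2842 and 311 lower and 3287 and 306 higher, and those against haploid ESCs 3456 and 361 lower and 3760 and 631 higher. Reads behind a value are not known, so values near 0, such as CLDN3 and CLDN7 outside diploid ESCs, give no size of difference between haploid ESCs and NPCs.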

Other observations

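Neighbours of the 10 genes in the RefSeq order of protein-coding genes did not always share their pattern. EIF4B, beside KRT18, did share its order of libraries, at 188 FPKM in diploid, 121 FPKM in haploid ESCs and 22.5 FPKM in the NPCs. CLDN6 lies between CLDN9 and TNFRSF12A, a receptor of the TNF receptor superfamily that stood at 144 FPKM in diploid, 129 FPKM in haploid ESCs and 23.8 FPKM in the NPCs. OCLN lies beside its family member MARVELD2, which was highest in NPCs, at 23.1 FPKM, where OCLN was at 0.25 FPKM. EPCAM lies beside the calmodulin gene CALM2, at 219, 346 and 276 FPKM, which was highest in haploid ESCs, where EPCAM was at 22.2 FPKM. CLDN7 lies beside ELP5, which was at 15.1, 11.7 and 14.7 FPKM.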
